A study of Saccharomyces cerevisiae with 24 samples.

Results

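Pho92 carrying the substitution I39A was set against wild-type Pho92 in budding yeast cultures sampled during early meiosis. The 6 libraries of this comparison were chosen by their sample titles from the 24 of the study, with 3 libraries in each group. In the I39A strain, the only PHO92 was an HA-tagged I39A copy inserted at TRP1 under the copper-inducible CUP1 promoter, with the endogenous PHO92 replaced by a hygromycin cassette. The CUP1-PHO92 strain was built in the same way with the wild-type protein, so that neither strain carried PHO92 under its own promoter. L35A, L38P and Δ35–42 were 3 further CUP1 strains, changed at or near residue 39 (single substitutions, or loss of residues 35 to 42), and W177A was another. The pho92Δ strain lacked the gene, and WT carried it at its own locus. All strains were MATa/alpha diploids. They shared the markers lys2 and ura3, hisG insertions in leu2, his3 and trp1, and ho::LYS2. Copper sulfate (50 µM) was added to all cultures, those without the transgene included, 3 h into sporulation medium (SPO), an acetate starvation medium, per the labels. The time of collection after copper was not stated. Whether the 3 libraries of a group came from separate cultures or clones was not stated either. The p-values of the main fit therefore measure the spread between libraries within groups, estimated over all 24 libraries, which may be technical.

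Pho92 is the YTH-domain protein of budding yeast. YTH domains bind N6-methyladenosine (m6A), a modified base that yeast cells place in mRNA when they enter meiosis, using a methyltransferase complex built around Ime4. Readers of m6A can bring mRNA decay factors to methylated transcripts, so transcripts that accumulate when a reader is lost or mutated are commonly examined. Poly(A) RNA abundance was measured here by counting sequenced fragments per gene.

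The reference sequence around the substituted residue is shown because a label of the I39A libraries is at odds with their title: the genotype field reads L39A, whereas the title reads I39A. The run below is the coding strand of PHO92 (YDR374C; R64, minus strand, chrIV:1224257-1224304), codons 31 to 46, with codon 39 in capitals.
PHO92 codons 31 to 46: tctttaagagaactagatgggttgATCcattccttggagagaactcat
Codon 39 is atc and encodes I in R64, in a protein of 306 residues. The leucines on either side, at residues 35, 38 and 42, are encoded by cta, ttg and ttg. The substitution is called I39A here, after the title. The sequence of the expressed copies was not analysed here.

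PHO92 itself had 12563, 11974 and 10519 CPM (counts scaled to a common library size) in I39A, against 16418, 11670 and 9970 CPM in CUP1-PHO92. The I39A libraries lay within the range of the CUP1-PHO92 libraries. The log2 fold change was -0.12 (SE 0.267, adjusted p 0.901; 95% interval -0.67 to 0.44), and without CUP1-PHO92 replicate 1 it was 0.11. In pho92Δ, 1, 14 and 1 reads were counted at PHO92. TRP1, the marker at the insertion site, had 7.82, 8.97 and 9.70 CPM in I39A, against 8.18, 5.60 and 8.91 CPM in CUP1-PHO92, and the groups overlapped (log2 fold change 0.22, adjusted p 0.681). The 6 annotated neighbours of PHO92, and the 5 of TRP1 that were tested, did not pass the threshold either.

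Library totals were 18723023 to 21756483 counts in I39A and 16108079 to 20459732 in CUP1-PHO92, all in batch A per the table headers. The labels of a diploid meiotic culture were set against marker genes. IME1 and IME2, the master regulators of meiotic entry, were at 3157 to 4215 CPM and 4191 to 4562 CPM in I39A, and the synaptonemal gene ZIP1 was at 1395 to 1460 CPM. The mating pheromone genes MFA1, MFA2 and MF(ALPHA)2, which diploids silence, were at 0.046 to 0.501 CPM in I39A. A further pheromone gene, MF(ALPHA)1, was above this, at 6.02 to 7.16 CPM in I39A. The receptor genes were higher still, with STE2 at 19.1 to 19.7 CPM and STE3 at 38.8 to 39.4 CPM in I39A. The mating genes FUS1 and STE5, also taken as low in diploids, were at 18.7 to 24.4 CPM and 29.7 to 33.2 CPM in I39A. None of these markers differed between I39A and CUP1-PHO92 at the threshold (lowest adjusted p among those tested 0.753). HO was not analysed here.

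The first question was which transcripts differ when residue 39 of the induced protein is changed. Of 5698 features tested, 3 passed an adjusted p of 0.05 in edgeR's quasi-likelihood test with Benjamini-Hochberg adjustment, which is 0.0527% of the features. These 3 were TPO1, YPS6 and TCB1, and all rose in I39A. No transcript fell at this threshold; at an unadjusted p under 0.05, 441 features were higher (7.74%) and 300 lower (5.27%), and DESeq2 called 23 higher and 6 lower. The unadjusted total of 741 depended on single libraries. It was 394 without CUP1-PHO92 replicate 3, 416 without I39A replicate 1 and 352 without I39A replicate 2. With the replicate number as a block, 6 features were called, the added ones being XBP1, YJL163C and YML131W.

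**Figure D1:**
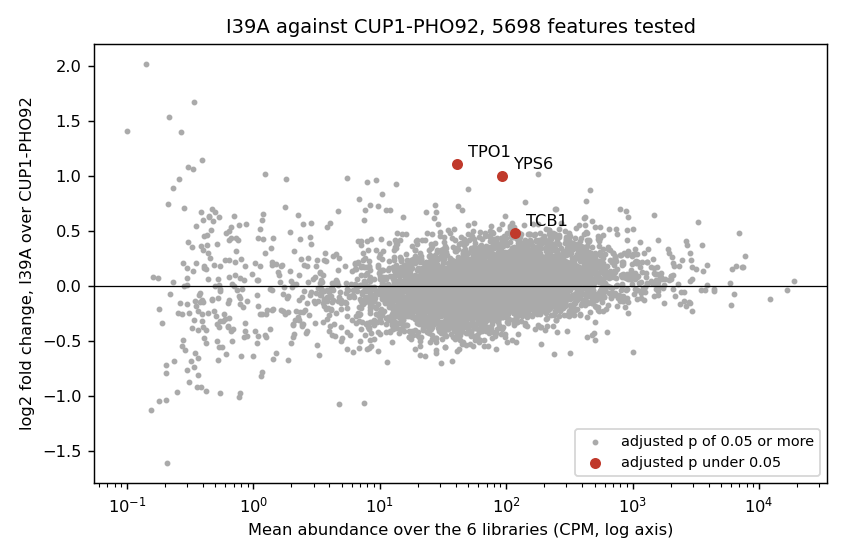
Log2 fold change of I39A over CUP1-PHO92 (vertical axis) against mean abundance over the 6 libraries (horizontal axis, CPM, log scale), with each point a feature. The 3 features past the adjusted p of 0.05 (red) all lie above 0, and the wider scatter is at the low-abundance end.

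TPO1 (YLL028W) encodes a plasma membrane transporter that exports polyamines such as spermidine. It had 58.0, 60.3 and 48.8 CPM in I39A, against 28.1, 24.2 and 25.1 CPM in CUP1-PHO92. The lowest I39A library was well above the highest CUP1-PHO92 library. TPO1 rose 2.16-fold in I39A (log2 fold change 1.11, SE 0.144, adjusted p 0.000621; 95% interval 0.81 to 1.41). The other strains with a mutated or deleted PHO92 had 56.3 to 64.5 CPM in L35A, 61.0 to 82.0 CPM in L38P, 63.1 to 69.9 CPM in Δ35–42, 67.8 to 106 CPM in W177A and 61.2 to 73.3 CPM in pho92Δ. WT had 26.7 to 28.4 CPM. The I39A libraries thus overlapped those of L35A and lay above every WT library. Tested directly, TPO1 in I39A differed from L35A by -0.09 (adjusted p 0.848; 95% interval -0.39 to 0.20), from Δ35–42 by -0.28 (adjusted p 0.325) and from pho92Δ by -0.24 (adjusted p 0.238). It was lower in I39A than in L38P by 0.43 on the log2 scale (log2 fold change -0.43, adjusted p 0.0180).

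YPS6 (YIR039C) encodes a member of the yapsins, aspartyl proteases anchored at the cell surface. It had 121, 126 and 125 CPM in I39A, against 59.1, 61.7 and 65.7 CPM in CUP1-PHO92. The groups were far apart relative to the spread within each. YPS6 rose 2.00-fold in I39A (log2 fold change 1.00, SE 0.113, adjusted p 0.00014). Its pattern over the strains was unlike that of TPO1. L35A had 63.6, 68.7 and 65.2 CPM and W177A had 72.0, 69.5 and 63.1 CPM, near CUP1-PHO92. L38P (135, 148 and 154 CPM), Δ35–42 (114, 140 and 125 CPM) and pho92Δ (116, 106 and 122 CPM) were near I39A, and WT was spread between (80.0, 120 and 97.6 CPM). YPS6 was therefore higher in I39A than in L35A (log2 fold change 0.92, SE 0.113, adjusted p 0.000522). Against WT the difference was 0.32 (adjusted p 0.149), and in pho92Δ against WT it was 0.21 (adjusted p 0.216). YPS6 lies 2 annotated genes from the right end of chromosome IX. The table headers give the I39A libraries strain number 13055 and give both the CUP1-PHO92 and the W177A libraries 10829; whether strain background takes part in the YPS6 difference was not tested.

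TCB1 (YOR086C) encodes a tricalbin, one of the proteins that tether the endoplasmic reticulum to the plasma membrane. It had 148, 137 and 123 CPM in I39A, against 99.1, 98.7 and 94.6 CPM in CUP1-PHO92, with no overlap. TCB1 rose 1.40-fold in I39A (log2 fold change 0.48, SE 0.0858, adjusted p 0.0323). In WT it had 140, 136 and 137 CPM, a log2 difference of -0.02 for I39A against WT (adjusted p 0.951; 95% interval -0.20 to 0.16). All 3 CUP1-PHO92 libraries were below the libraries of both I39A and WT. In pho92Δ it had 168 to 185 CPM, and I39A was below pho92Δ by 0.38 on the log2 scale (log2 fold change -0.38, adjusted p 0.00476). This call was the least stable: the adjusted p of TCB1 was 0.0569 with another scaling method (RLE), 0.0502 with no filter on low counts and 0.292 in a fit of the 6 libraries alone. It was 0.13 to 0.331 when any 1 library other than I39A replicate 3 was left out. TPO1 and YPS6 stayed past the threshold in each of 15 alternatives, with adjusted p of at most 0.0371 and 0.00647. A minimum absolute log2 fold change of 1 was a further alternative, and it left TPO1 alone, as YPS6 stood at 0.9995.

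**Figure D2:**
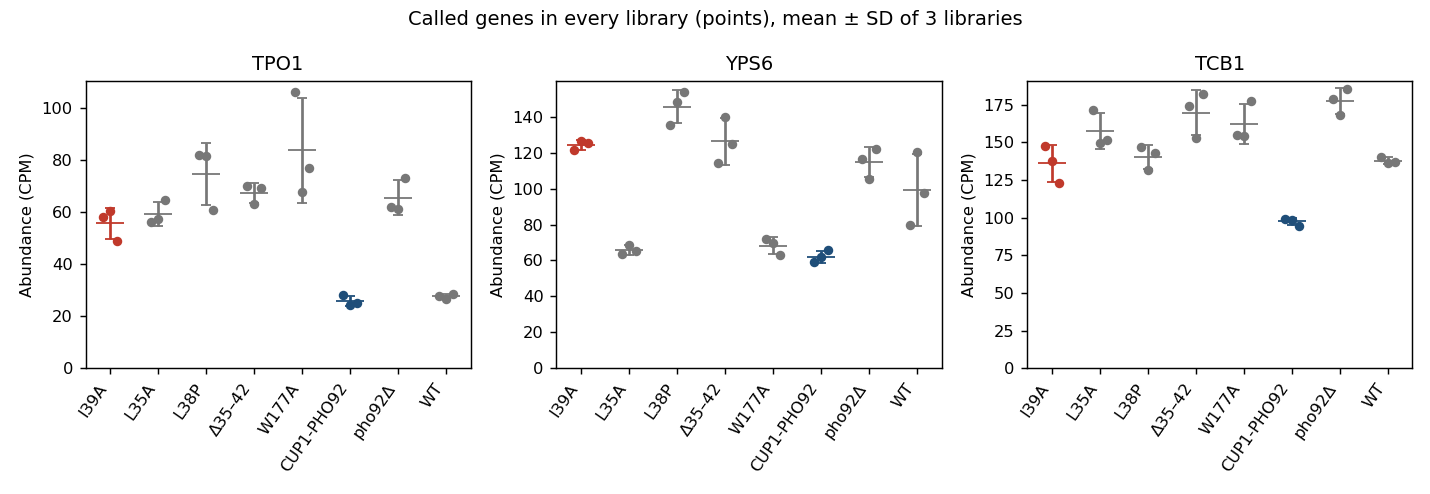
Abundance (vertical axis, CPM) of TPO1, YPS6 and TCB1 in each library of the 8 groups (points), with the mean and SD of 3 libraries (bars). I39A (red) is above CUP1-PHO92 (blue) for all 3 genes, while L35A is level with CUP1-PHO92 for YPS6.

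The coding sequences of these 3 genes were searched for ANAGACNNT and ANGGACNNT, letters that resemble the sequence around m6A sites in yeast mRNA. The coding strand was searched, and the other strand was not. TPO1, with 1761 coding bases, holds 2 matches, shown with the match in capitals (R64, plus strand, chrXII:85125-85154 and chrXII:85868-85897).
TPO1 first match: atgggtggtgACAGACCTTaccctccatcg
TPO1 second match: gctatccatcAAAGACATTgtccaaaaaac
YPS6 (1614 coding bases) and TCB1 (3561 coding bases) hold 0. None of the 3 genes has a match in its last 300 coding bases, where 17.3% of the 5705 annotated coding sequences of at least that length have 1 or more. Over whole coding sequences, which differ in length, the share is 55.2%. A match is only these letters; no methylation was measured.

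Genes beside the called ones did not pass the threshold. The genes flanking TPO1 had log2 fold changes of 0.53 for FRA1 (adjusted p 0.169), which acts in iron sensing, and -0.36 for ISA1 (adjusted p 0.241), an iron-sulfur cluster assembly gene. Beyond FRA1, RRT7 had 0.84 (adjusted p 0.370) and GPI13 0.48 (adjusted p 0.250). For FRA1, RRT7 and GPI13, all I39A libraries lay above those of CUP1-PHO92, an arrangement found in 10.6% of all features. Beyond ISA1, HSP104 had 0.34 (adjusted p 0.418) and PAU17 -0.05 (adjusted p 0.934), both with overlap. GTT1, next to YPS6, had -0.08 (adjusted p 0.791). Beyond GTT1, HYR1 had -0.18 (adjusted p 0.617) and IRC24 -0.21 (adjusted p 0.551). For HYR1 and IRC24, all I39A libraries lay below those of CUP1-PHO92, an arrangement found in 9.62% of all features. The annotated genes on the other side of YPS6 were not tested. OST3 and YVC1, on either side of TCB1, had adjusted p of 0.835 and 0.908. Further out, WHI5 had 0.20 (adjusted p 0.400), LPX1 0.29 (adjusted p 0.340) and PTC5 0.25 (adjusted p 0.408). For WHI5, LPX1 and PTC5, all I39A libraries lay above those of CUP1-PHO92 (10.6% of all features). VPS21 had -0.06 with overlap (adjusted p 0.893). The median log2 fold change of genes with at least 10 CPM was between -0.013 (chromosome VII) and 0.041 (chromosome I) on every chromosome.

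The sizes that these libraries could show are given by the errors. The median SE of a log2 fold change was 0.137, with quartiles of 0.108 and 0.189, and the median absolute log2 fold change was 0.134. For 5260 features, 92.3% of those tested, the 95% interval lay within a 2-fold change in either direction, and for 4041 (70.9%) it lay within 1.5-fold. Of the 18 features with an absolute log2 fold change of at least 1, only 2 averaged 10 CPM or more: TPO1, and FIT3, a cell wall mannoprotein of iron uptake, at 1.02 (SE 0.311, adjusted p 0.239).

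Below the threshold, the 10 higher genes with the smallest p (mean of at least 10 CPM and no overlap between groups) had log2 fold changes of 0.37 to 0.93 and adjusted p of 0.0876 to 0.169. XBP1, a transcriptional repressor induced by stress and starvation, had 193, 198 and 139 CPM in I39A, against 116, 106 and 88.9 CPM in CUP1-PHO92 (log2 fold change 0.77, adjusted p 0.109). AXL2, a bud-site landmark protein, had 51.5, 57.8 and 55.2 CPM in I39A, against 24.3, 40.4 and 37.2 CPM in CUP1-PHO92 (0.69, adjusted p 0.169). DSN1, a kinetochore subunit, differed by 0.40, and OSH2, an oxysterol-binding protein, by 0.37. The others were YJL163C (0.49), VPS73 (0.44), FRA1 (0.53), YRR1 (0.44), YOL153C (0.42) and YER121W (0.93). The comparison of pho92Δ with WT shares no library with I39A against CUP1-PHO92. It called 8.18% of all features higher and 9.48% lower, and among these 10 it called 7 higher and 0 lower.

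The 10 lower genes chosen in the same way had log2 fold changes of -0.57 to -0.22 and adjusted p of 0.169 to 0.233. MAM33, a mitochondrial matrix protein, had 46.7, 52.8 and 50.8 CPM in I39A, against 79.7, 66.7 and 67.1 CPM in CUP1-PHO92 (-0.51, adjusted p 0.185). MRPS9, RSM26 and MRPL13, subunits of the mitochondrial ribosome, had -0.31, -0.39 and -0.22. RPS14B, a cytosolic ribosomal protein, had 63.2, 56.8 and 80.2 CPM in I39A, against 102, 89.0 and 107 CPM in CUP1-PHO92 (-0.57, adjusted p 0.208). The others were DIA1 (-0.55), YDL144C (-0.35), DFM1 (-0.28), AIM11 (-0.39) and PRS1 (-0.36). Of these 10, pho92Δ was lower than WT in 3 and higher in 1.

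Because m6A readers are studied through the transcripts that accumulate without them, the 466 genes that rose in pho92Δ relative to WT were followed in the I39A comparison. Of these, 2 were called higher in I39A (TPO1 and TCB1) and 0 lower. Their median log2 fold change was 0.15, against -0.004 over all features tested, and 79.4% of them were above 0, against 49.0% of all features. At an unadjusted p under 0.05, 135 of the 466 were higher and 7 lower, against 7.74% and 5.27% of all features. In 145 of the 466, all 3 I39A libraries lay above the 3 CUP1-PHO92 libraries, against 10.6% of all features. In 11 of the 466 they lay below, against 9.62% of all features. Taken per library as the median log2 difference from the CUP1-PHO92 mean of each gene, these genes stood at 0.14, 0.16 and 0.17 in I39A, against 0.067, -0.068 and 0.012 in CUP1-PHO92. The I39A libraries were all above the CUP1-PHO92 libraries. Across the alternatives the median was 0.12 to 0.19.

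Of these genes, 6 were followed singly, those with the smallest p in pho92Δ against WT. VPS73 had 127, 141 and 122 CPM in I39A, against 102, 94.8 and 89.8 CPM in CUP1-PHO92. YCK1, a casein kinase of the plasma membrane, had 65.4, 69.2 and 77.6 CPM in I39A, against 56.4, 51.5 and 47.3 CPM in CUP1-PHO92. For both, the groups did not overlap. Their log2 fold changes were 0.44 and 0.45 (adjusted p 0.142 and 0.210), against 1.63 and 1.22 for pho92Δ over WT. YER158C had 0.51 (adjusted p 0.208), UGA2, a succinate semialdehyde dehydrogenase, 0.24 (adjusted p 0.290) and GFD1 0.24 (adjusted p 0.282). ENT3, an endosomal adaptor, had 0.11 with overlapping groups (adjusted p 0.577). None of the 6 passed the threshold in I39A.

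**Figure D3:**
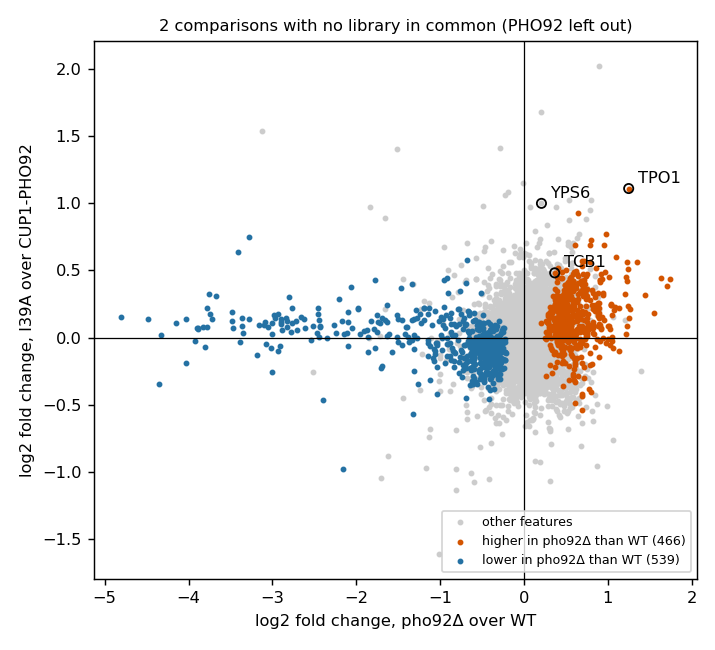
Log2 fold change of I39A over CUP1-PHO92 (vertical axis) against that of pho92Δ over WT (horizontal axis) for each feature tested, with no library in both. Genes that rose in pho92Δ (orange, median 0.15 on the vertical axis) lie mostly above 0, genes lower in pho92Δ (blue, median -0.05) lie on both sides, and the 3 called genes are ringed.

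The 539 genes that fell in pho92Δ relative to WT, besides PHO92 itself, had 0 calls in I39A. At an unadjusted p under 0.05, 52 of them were lower and 2 higher, against 5.27% and 7.74% of all features, and their median log2 fold change was -0.05. The median turned sign across the alternatives (-0.15 to 0.0076). In 110 of the 539, all 3 I39A libraries lay below the 3 CUP1-PHO92 libraries (9.62% of all features), and in 2 they lay above (10.6% of all features). Per library these genes stood at -0.13, 0.019 and -0.061 in I39A, against -0.11, 0.12 and 0.031 in CUP1-PHO92, and the groups overlapped.

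Among genes grouped by function, the components of the m6A pathway and of mRNA decay had 0 calls. The 6 genes of the methyltransferase complex had a median log2 fold change of -0.07, from -0.18 for DYN2 to 0.28 for VIR1, and 0 of them had an unadjusted p under 0.05. Of the 9 CCR4-NOT deadenylase genes, which shorten poly(A) tails, 1 did and was higher, against 7.74% of all features. This was the scaffold gene CDC39 (0.54, adjusted p 0.298), with overlapping groups. Of 14 decapping and decay genes, 3 had an unadjusted p under 0.05, all higher, against 7.74% of all features. They were the decapping enzyme DCP2 (0.39, adjusted p 0.277), SCD6 and the helicase DHH1. The 5 genes of the Paf1 complex, which acts in transcription elongation, had 0 at that p.

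Meiotic genes had 0 calls in any of 3 lists. Of 14 regulators of meiotic entry, 4 were higher at an unadjusted p under 0.05, against 7.74% of all features. They were SUM1, a repressor of middle meiotic genes (0.45, adjusted p 0.208), RIM101 (0.30), UME6 (0.42) and the kinase RIM15 (0.37). The list median was 0.14 (0.084 to 0.23 across the alternatives). The 32 genes of early recombination and chromosome axes had a median of 0.06 (-0.0046 to 0.10 across the alternatives, so it turned sign). At an unadjusted p under 0.05, 1 was lower (SKI8) and 0 higher, against 5.27% and 7.74% of all features. The 35 genes of the meiotic divisions and spore formation had a median of 0.12, with 1 higher at that p (MPC54), against 7.74% of all features. Per library their median difference was -0.027, 0.52 and 0.085 in I39A, against -0.78, 0.53 and 0.25 in CUP1-PHO92. CUP1-PHO92 replicate 1 was far below the other libraries, and without it the list median was -0.19.

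Cytosolic ribosomal protein genes were the list with the lowest median. Of 121 genes, 0 were called, but 120 had a log2 fold change below 0 and 36 an unadjusted p under 0.05, all lower (5.27% of all features). The median was -0.38 (-0.48 to -0.31 across the alternatives), from -0.69 for RPS22B to 0.19 for RPL41A. Per library the list stood at -0.35, -0.53 and -0.26 in I39A, against 0.15, -0.21 and 0.069 in CUP1-PHO92. The I39A libraries were all below the CUP1-PHO92 libraries, by little between the highest I39A and the lowest CUP1-PHO92 library. In 59 of the 121 genes the 3 I39A libraries lay below the 3 CUP1-PHO92 libraries, against 9.62% of all features, and in 0 they lay above. RPL11A had 36.5, 32.8 and 41.1 CPM in I39A, against 59.6, 46.4 and 53.7 CPM in CUP1-PHO92 (adjusted p 0.261), and RPL23A had an adjusted p of 0.267. Many of these genes have near-identical copies between which counting can split reads. Against CUP1-PHO92 the list median was -0.90 in L35A, -0.26 in Δ35–42 and 1.37 in L38P. In pho92Δ against WT it was 0.39, in the other direction from I39A.

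Genes of the G1 phase of the mitotic cycle had a median above 0. Of 10, 0 were called and 5 were higher at an unadjusted p under 0.05, against 7.74% of all features. The list median was 0.30 (0.24 to 0.35 across the alternatives). The cyclin CLN3 had 36.7, 36.8 and 29.0 CPM in I39A, against 23.7, 23.4 and 22.3 CPM in CUP1-PHO92 (0.56, adjusted p 0.285). The cyclin CLN2 had 0.42 (adjusted p 0.310), SWI4, a subunit of the G1 transcription factor SBF, 0.36 (adjusted p 0.333), and ASH1, a repressor of HO, 0.30 (adjusted p 0.357). Per library the list stood at 0.19, 0.27 and 0.33 in I39A, against 0.0012, -0.054 and 0.039 in CUP1-PHO92, without overlap.

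**Figure D4:**
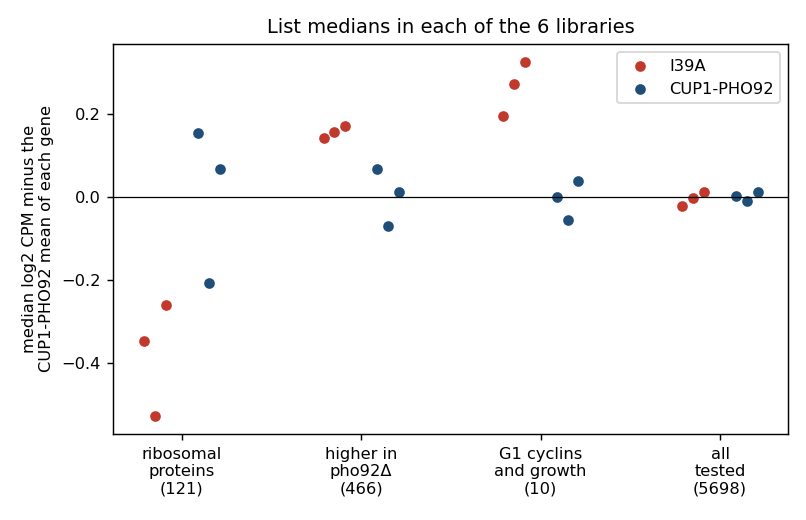
Median, over the genes of a list, of log2 CPM minus the CUP1-PHO92 mean of each gene (vertical axis), with 1 point per library. The 3 I39A libraries (red) are below the 3 CUP1-PHO92 libraries (blue) for ribosomal proteins and above them for the genes higher in pho92Δ and the G1 list, and level with them over all features tested.

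Other members of the families of the called genes were not called. Of 16 polyamine transport and synthesis genes, TPO1 was called, and the kinase PTK2 (0.42, adjusted p 0.282) and the transporter TPO4 (0.48, adjusted p 0.283) were higher at an unadjusted p under 0.05. The list median was 0.02. Of the 5 yapsins in the table, YPS6 was called, and YPS1 had 387, 346 and 249 CPM in I39A, against 260, 235 and 166 CPM in CUP1-PHO92, with overlap (0.57, adjusted p 0.250). Of 6 tether genes, TCB1 was called, IST2 had 205, 204 and 176 CPM in I39A, against 156, 128 and 113 CPM in CUP1-PHO92 (0.56, adjusted p 0.208), TCB3 had 0.32 (adjusted p 0.333) and SCS2 -0.22 (adjusted p 0.358). At an unadjusted p under 0.05, 3 tether genes (TCB1, IST2 and TCB3) were higher and 1 (SCS2) was lower, and 2 yapsins (YPS6 and YPS1) were higher. Over all features, 7.74% were higher and 5.27% lower at that p. Copper response genes had 0 calls among 13 and a median of -0.03. The reductase FRE7 was the only one with an unadjusted p under 0.05 (-0.45, adjusted p 0.241), against 5.27% of all features lower. Of the 23 phosphate genes and 23 heat shock chaperone genes, and of the 15 haploid-specific genes tested, 0 were called.

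**Figure D5:**
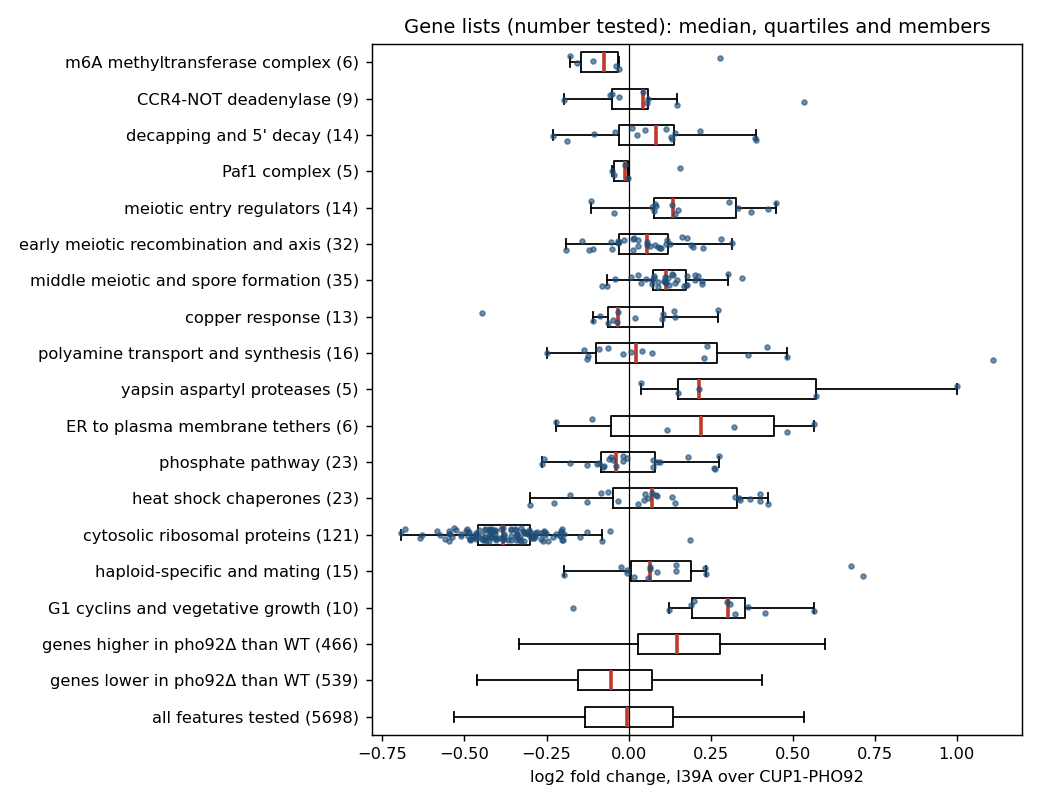
Log2 fold change of I39A over CUP1-PHO92 (horizontal axis) for the genes of each list, with the median (red line), quartiles (box), whiskers to the last value within 1.5 box lengths, and single genes as points in all but the 3 longest lists. Ribosomal protein genes centre on -0.38 and the G1 list on 0.30, while the line of all 5698 features centres on -0.004.

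The second question was whether transcripts in I39A differed from those in strains changed at the residues around it. L35A, L38P and Δ35–42 were each set against the same CUP1-PHO92 libraries, which they share with I39A, and their calls were 1290 (22.6%), 2507 (44.0%) and 1245 (21.8%) of 5698 features. Their median absolute log2 fold changes were 0.230, 0.304 and 0.232, against 0.134 for I39A. A count past a threshold in 1 comparison and not in another does not show a difference, so I39A was tested directly against each.

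Against L38P, 2696 features differed (47.3%), 1313 higher (23.0%) and 1383 lower (24.3%) in I39A. All 32 early meiotic genes were higher in I39A than in L38P, as were 33 of the 35 genes of divisions and spore formation, while 118 of the 121 ribosomal protein genes were lower, with a list median of -1.71. SMK1, a kinase of spore wall formation, had 93.1, 173 and 107 CPM in I39A, against a mean of 4.29 ± 3.87 CPM in L38P (SD, n = 3). Its log2 fold change was 4.90 (SE 0.950, adjusted p 0.000488). SPR2, a sporulation gene, differed by 5.15 (SE 1.04, adjusted p 0.000691), YKR015C by 5.03 (adjusted p 0.000394) and YPR078C by 4.91 (adjusted p 0.000633). In CUP1-PHO92, SMK1 averaged 119 ± 63.0 CPM (SD, n = 3). TRP1 was lower in I39A than in L38P (log2 fold change -1.59, adjusted p 1.06e-05), and its part in these differences was not tested. One L38P library, replicate 2, was in batch B.

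Against Δ35–42, 98 features differed (1.72%), 58 higher (1.02%) and 40 lower (0.702%) in I39A, and with the replicate block 264. The balance of higher and lower calls changed with the processing: it was 46 and 66 with RLE scaling, 35 and 76 with no filter, 64 and 100 with batch A alone, and 87 and 135 with DESeq2. A fit of the 6 libraries alone gave 0 calls in edgeR, with 935 features at an unadjusted p under 0.05. The count was 60, 21 and 30 without I39A replicate 1, 2 or 3, and 38 and 28 without Δ35–42 replicate 1 or 3. TIP1, a cell wall mannoprotein, had 267, 287 and 179 CPM in I39A, against a mean of 556 ± 104 CPM in Δ35–42 (SD, n = 3). It was lower in I39A by 1.18 on the log2 scale (log2 fold change -1.18, SE 0.226, adjusted p 0.00944). The cyclin CLN1 (log2 fold change -1.12, adjusted p 0.0019) and PRY2, a secreted sterol-binding protein (-1.14, adjusted p 0.0373), were lower in I39A too. Of the 466 genes higher in pho92Δ, 35 differed and all 35 were lower in I39A than in Δ35–42, against 0.702% of all features. The list median was -0.28. Of the 539 genes lower in pho92Δ, 38 differed and all 38 were higher in I39A, against 1.02% of all features.

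Against L35A, 36 features differed (0.632%), 30 higher (0.527%) and 6 lower (0.105%) in I39A. The calls were fewer in other fits: 12 with no filter on low counts and 1 in a fit of the 6 libraries alone, YPS6, which had the largest log2 fold change of the genes named by size. DPC29, a mitochondrial protein, had 22.8, 24.7 and 24.8 CPM in I39A, against a mean of 13.0 ± 4.04 CPM in L35A (SD, n = 3; log2 fold change 0.89, adjusted p 0.0399). MAM33 was higher in I39A than in L35A by 0.73 (adjusted p 0.0179) and COX23, which acts in cytochrome oxidase assembly, by 0.66 (adjusted p 0.0160). Of the genes higher in pho92Δ, 5 of 466 differed, all lower in I39A, against 0.105% of all features. Of the genes lower in pho92Δ, 11 of 539 differed, all higher in I39A, against 0.527% of all features. The median of all 539 was nevertheless below 0, at -0.09 for I39A against L35A, so the list as a whole did not lean higher. For L35A against CUP1-PHO92 the median of these genes was 0.04. Ribosomal protein genes had a median of 0.51 for I39A against L35A, with 0 of 121 called. TRP1 had a log2 fold change of -0.88 (adjusted p 0.0543), and its part in these differences was not tested. Single libraries decided this count: it was 18 without I39A replicate 1, 1 without I39A replicate 2, 1 without I39A replicate 3, 1 without L35A replicate 1 and 3 without L35A replicate 2.

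Set against the strains without the transgene, I39A differed from WT in 74 features (1.3%) and from pho92Δ in 1187 (20.8%). TPO1 was higher in I39A than in WT (log2 fold change 1.01, adjusted p 0.00112). PHO92 was higher in I39A than in WT by 3.77 on the log2 scale (adjusted p 3.3e-07). The comparison with WT therefore differs in PHO92 level as well as in residue 39, whereas I39A and CUP1-PHO92 share the promoter. TRP1 was lower in I39A than in WT (log2 fold change -1.04, adjusted p 0.0144) and in pho92Δ (-1.30, adjusted p 0.000357). Its part in these differences was not tested. TPO1 averaged 25.8 CPM in CUP1-PHO92 and 27.6 CPM in WT.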

How the data were processed

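Poly(A) RNA was sequenced from 24 libraries; the labels' protocol, worded for degron strains, names a directional paired-end kit. The authors deposited a table of whole-number counts per feature with no normalization. The submitters' processing notes name STAR 2.7.10a, RSEM 1.3.1 and DESeq2 1.48.1 without their roles, so whether the counts are rounded estimates is not known; genome build, annotation and strand setting are not given in the sources used here. Without a stated strand setting, reads of overlapping antisense genes cannot be told apart. Of 6157 features, 5620 matched a locus tag of RefSeq R64, used for names, neighbours and sequences only.

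Groups and replicate numbers came from the sample titles. Counts of the 24 libraries entered a single edgeR 4.0.16 fit (R 4.3.3) with 1 mean for each group, TMM factors, filterByExpr, glmQLFit and glmQLFTest, leaving 16 residual degrees of freedom. The filter removed 459 features and left 5698, over which the Benjamini-Hochberg adjustment ran; the threshold was 0.05 with no minimum fold change. CPM use the TMM-scaled library size, except for the marker genes set against the labels, which use the library total. On the TMM scale, 3 counts correspond to 0.0828 to 0.179 CPM, which covers counting error only. SE is the absolute log2 fold change divided by the square root of F. Library scores used log2 CPM with a prior count of 2. The fit was tested on simulated data. No 2 libraries of the compared groups agreed within sampling noise (chi-square per feature of 41.3 or more).

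Named genes are PHO92, TRP1, the called genes, the 10 higher and 10 lower genes with the smallest p below the threshold (mean of at least 10 CPM, groups not overlapping), up to 4 per list by p, the 4 called genes of largest fold against each neighbouring mutant, 6 genes higher in pho92Δ, and 3 neighbours on each side of called genes, PHO92 and TRP1. Marker genes of the strains other than TRP1 were not eligible. One gene that the rule gives against Δ35–42 is not reported here, and not every eligible list member is printed. Members and lists were chosen with earlier results of these data known.

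Same-numbered libraries deviated together from their group means: across genes, r was 0.298, 0.251 and 0.486 for I39A with CUP1-PHO92, 0.339, 0.351 and 0.521 with Δ35–42, and 0.267, 0.503 and 0.428 with L35A, so the numbers were taken to pair these libraries. The main fit had no term for the replicate number, so the main counts are unpaired. The replicate block was run as an alternative. Alternatives were RLE scaling, no filter, the replicate block, the 6 libraries alone, DESeq2 1.42.0, limma-voom (limma 3.58.1), robust dispersion, batch A alone, a minimum fold, a covariate for the main within-group axis, and each library left out in turn.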

Additional observations from a re-analysis of the deposited data

Results flagged for a closer look

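Each of 3 genes differed between I39A and another mutant when both were set against CUP1-PHO92, tested as the direct contrast of the 2 mutants in edgeR. YPS6 was higher in I39A than in L35A by 0.917 on the log2 scale (adjusted p 0.000522), with 3 of 3 I39A libraries above the 3 L35A libraries. TPO1 had a log2 difference of -0.426 for I39A minus L38P (adjusted p 0.0180), although it was higher than in CUP1-PHO92 in both. TRP1, the marker at the insertion site, had a log2 difference of -1.593 for I39A minus L38P (adjusted p 1.06e-05). I39A had 166, 172 and 191 TRP1 counts and L38P 516, 737 and 743.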

How the results depend on the processing

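For I39A against CUP1-PHO92, the 3 calls became 1 with a minimum absolute log2 fold change of 1, 29 with DESeq2, 6 with the replicate block and 19 with a within-group covariate (17 higher, 2 lower); leaving out 1 library gave 2 to 4. Each of these except the minimum fold kept TPO1, YPS6 and TCB1, but 5 of the 6 fits without 1 library lost TCB1. Against L35A, 36 calls became 1 with the minimum fold, 101 with DESeq2, 23 with limma-voom, 12 with no filter, 1 with the 6 libraries alone and 174 with the covariate; leaving out 1 library gave 1 to 53. Against Δ35–42, 98 calls became 5 with the minimum fold, 222 with DESeq2, 164 with batch A alone, 0 with the 6 libraries alone, 264 with the replicate block and 660 with the covariate; leaving out 1 library gave 21 to 89. Against L38P, 2696 calls became 532 with the minimum fold, and leaving out 1 library gave 1913 to 2805. The PHO92 log2 fold change was -0.2651 to 0.1114 with 1 library left out, above 0 without CUP1-PHO92 replicate 1. The cause was not tested for any of these shifts. Of 450 values for single named genes under the alternatives, 416 kept their direction and side of the threshold, 25 newly passed it, 8 no longer did and 1 turned round. The L38P libraries were not paired with I39A by number (r of -0.00202, -0.343 and 0.186), and the block gave 2967 calls there; against L35A it gave 51. Genes near the floor of 3 counts have wide errors.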

Other observations

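Subunits of the mitochondrial ribosome, a list chosen after the values were seen (67 tested genes named MRP, MRPL, MRPS or RSM and a number), stood between CUP1-PHO92 and the neighbouring mutants in I39A. Against CUP1-PHO92 0 of the 67 were called, 64 had a log2 fold change below 0, and the median was -0.21, against -0.004 over all features tested. At an unadjusted p under 0.05, 28 were lower and 0 higher, against 5.27% and 7.74% of all features. The median difference from the CUP1-PHO92 mean was -0.28, -0.17 and -0.15 in the I39A libraries, -0.63, -0.54 and -0.52 in L35A, -0.57, -0.47 and -0.61 in Δ35–42, and 0.018, -0.086 and 0.072 in CUP1-PHO92. In the direct tests, 18 were higher in I39A than in Δ35–42 (1.02% of all features) and 9 were higher than in L35A (0.527% of all features), with 0 lower in either. L38P differed from this order: 6 of the 67 were higher and 13 lower in I39A than in L38P (23.0% and 24.3% of all features). In pho92Δ against WT, 23 were lower (9.48% of all features) and 1 higher (8.18%), with a median of -0.25.

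COS12 (YGL263W), the outermost gene of the left arm of chromosome VII, and YGL262W beside it were also chosen after their values were seen. COS12 had 10.3, 13.5 and 13.5 CPM in I39A, against 7.11, 7.05 and 4.86 CPM in CUP1-PHO92 (log2 fold change 0.97, adjusted p 0.169). It had 3.99, 7.49 and 3.45 CPM in L35A, and was higher in I39A than in L35A by 1.33 on the log2 scale (adjusted p 0.0160). L38P, Δ35–42 and pho92Δ had means of 15.5, 17.8 and 12.3 CPM, and W177A 5.84 CPM. The groups high and low in COS12 were those high and low in YPS6, which lies near the right end of chromosome IX. YGL262W was higher in I39A than in L35A by 0.92 (adjusted p 0.0277), with a log2 fold change of 0.73 against CUP1-PHO92 (adjusted p 0.169). COS genes have close copies at other chromosome ends, so their counts are uncertain.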
